A study of Mus musculus with 103 samples.

Results

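The Zfp genes are the mouse genes whose symbol begins with Zfp and a number, a naming series for zinc finger proteins. They were taken from the deposited RNA table by their symbol, with 1 transcript per symbol (the one of highest mean value), and without Zfp36, Zfp36l1, Zfp36l2 and Zfp36l3, whose fingers belong to the CCCH class of mRNA decay factors. A gene counted as a member at 1 RPKM or more (reads per kilobase of transcript, relative to the reads of the library) in at least 2 of the 6 libraries. Of 358 such symbols 227 passed, out of 10605 genes that passed among the 24014 symbols of the table. The other 131 did not pass, and 28 of those were listed at 0 in all 6 libraries. Just inside the limit, the second-highest library of Zfp229, Zfp870 and Zfp438 stood at 1.00, 1.02 and 1.04 RPKM. Just outside it, that of Zfp583, Zfp28 and Zfp563 stood at 0.979, 0.985 and 0.995 RPKM.

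The cells were macrophages drawn into the mouse peritoneum by thioglycollate, from male C57BL/6 mice aged 6 to 8 weeks with no engineered allele named, kept overnight in 0.5% serum before treatment. KLA (Kdo2-lipid A, the part of bacterial lipopolysaccharide that activates TLR4) was given at 100 ng/ml for 1, 6, 12 or 24 h. One untreated library is the control for 1, 6 and 12 h and a second untreated library is the control for 24 h, so the first 3 comparisons share a control. Each of the 6 conditions has 1 library of poly(A) RNA, so no difference has a replicate check and no p-value is given. Of the 103 samples of the series, these 6 and 2 ChIP-seq peak lists are used. The titles of both ChIP-seq samples name GW3965, an agonist of the oxysterol receptor LXR, and the treatment of one of them is uncertain, as given below.

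Most proteins of this series carry tandem C2H2 fingers, each of which holds a zinc ion between a pair of cysteines and a pair of histidines and reads a few bases of DNA. Many also begin with a KRAB box, the domain that recruits Trim28 (KAP1) and with it Setdb1 and heterochromatin. KRAB zinc finger genes lie in clusters that grew by tandem duplication, and several are known for silencing retroviral DNA or guarding imprinted loci. Members without a KRAB box include transcription factors, RNA-binding proteins and ubiquitin or SUMO ligases.

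A KRAB box was found in 116 of the 225 members with a RefSeq coding sequence (51.6%), by a pattern at either end of the box that was broadened after a stricter one had found 45. Members with the box held a median of 11 C2H2 fingers, with at most 23 in Zfp748. Members without the box held a median of 7, with at most 32 in Zfp142. Fingers whose paired cysteines are spaced otherwise, such as several of those of Zfp143, are not counted. A divergent box can be missed, so a member called without a box below is one in which the pattern found none. Zfp91Cntf (a read-through of Zfp91, with which it shares reads) and the antisense RNA Zfp652os were the members without a coding sequence.

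The libraries held between 2205188 and 2674827 assigned reads, with 2205188 in the untreated control of the early times and 2399933 at KLA 1 h. Members received 5125 to 9659 reads per library in all, and a median of 11 to 26 reads each, so single members are measured coarsely. Intervals below are 95% exact (Clopper-Pearson) intervals on the ratio of 2 read counts and cover counting error only. Macrophage markers summed to between 6534 and 11262 RPKM, with all 8 detected in each library. Of 7 neutrophil markers in the table, 2 passed, and the sum of the 7 lay between 41.1 and 122 RPKM, highest at KLA 24 h. That highest sum was 117.6 RPKM of S100a8, which stood at 38.3 RPKM in the first untreated library, and 4.38 RPKM of Camp. The other 5, Cxcr2 among them, were listed at 0 at KLA 24 h. Of 5 B cell markers 4 passed, with sums of 5.68 to 13.2 RPKM, and of 6 T and NK cell markers 1 passed, with sums of 0.444 RPKM untreated and 10.9 RPKM at KLA 6 h. The latter was 10.6 RPKM of Lck, while Cd3e stood at 0.294 RPKM and Cd3d, Cd3g, Cd8a and Ncr1 were listed at 0. All 6 fibroblast and mesothelium markers passed, with sums of 82.4 to 149.7 RPKM. None of the 5 mast cell or the 5 dendritic cell markers passed, and of the dendritic cell markers 3 were listed at 0 in the first untreated library. The part of these cells in the differences below was not tested. In bulk RNA, fewer cells of a type and less RNA per cell cannot be told apart.

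A sequence recurs in the promoters of a minority of the members with a KRAB box, 26 of the 104 with a promoter window. Of these, 14 are close copies in 1 stretch of chromosome 13. Other motifs recur in these promoters as well, as given below. This sequence is shown first because the early changes below are described with and without it. The capitals mark 12 bases of the type bound by ZNF143 (mouse Zfp143), a factor that acts at promoters. They were searched on either strand with the fifth and sixth base free and the others as shown. Each line gives the 120 bases before the annotated RefSeq start on the gene's own strand, from build GRCm38.p6. Zfp74 lies at chr7:29954066-29954185 (minus strand). Zfp748 lies at chr13:67553153-67553272 (minus), Zfp455 at chr13:67194386-67194505 (plus) and Zfp429 at chr13:67399768-67399887 (minus). The first 3 are among the 8 lowest members at KLA 1 h, and Zfp429 holds the same letters and was not lower then.
Zfp74: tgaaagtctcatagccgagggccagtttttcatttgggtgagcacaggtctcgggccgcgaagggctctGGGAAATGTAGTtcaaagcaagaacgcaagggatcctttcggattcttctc
Zfp748: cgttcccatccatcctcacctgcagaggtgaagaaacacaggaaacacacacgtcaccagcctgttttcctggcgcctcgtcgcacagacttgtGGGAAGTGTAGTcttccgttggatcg
Zfp455: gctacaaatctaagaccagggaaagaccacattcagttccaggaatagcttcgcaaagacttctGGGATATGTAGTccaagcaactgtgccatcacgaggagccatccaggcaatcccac
Zfp429: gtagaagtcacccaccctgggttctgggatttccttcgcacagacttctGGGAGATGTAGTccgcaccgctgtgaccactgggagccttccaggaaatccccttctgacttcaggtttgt

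Taken without any filter on level, the KRAB genes as a group had their lowest share of the library after 1 h of KLA. Reads in the 198 Zfp symbols with a KRAB box summed to 1130 RPM (reads per 1000000 reads of the library) in the untreated control of the early times, 539 RPM at KLA 1 h, 645 at 6 h and 699 at 12 h. They summed to 1430 RPM in the untreated control of 24 h and 1178 at KLA 24 h. All 4 KLA libraries lay below the control of their own series, and KLA 24 h alone lay above one of the untreated libraries. The ratio to the control was 0.477 (0.445 to 0.510) at 1 h, 0.571 (0.535 to 0.609) at 6 h, 0.619 (0.581 to 0.658) at 12 h and 0.824 (0.786 to 0.864) at 24 h. The 2 untreated libraries differed by a ratio of 1.27 (1.20 to 1.33), and against the second one the ratio at 1 h was 0.377 (0.353 to 0.402). Leaving out the 5 KRAB symbols with most reads (Zfp871, Zfp445, Zfp110, Zfp715 and Zfp120, 17.5% of the reads) left it at 0.469 (0.436 to 0.506).

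Zfp symbols without a KRAB box had their lowest sums later. The 152 of them summed to 2203 RPM untreated, 1746 at KLA 1 h, 1559 at 6 h, 1574 at 12 h, 2474 in the second untreated library and 1940 at 24 h. Their ratio to the control was 0.792 (0.760 to 0.826) at 1 h, 0.708 (0.678 to 0.739) at 6 h, 0.714 (0.685 to 0.745) at 12 h and 0.784 (0.756 to 0.813) at 24 h. At 1, 6 and 12 h the counting intervals of the groups with and without the box did not overlap, and at 24 h they did.

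**Figure D1:**
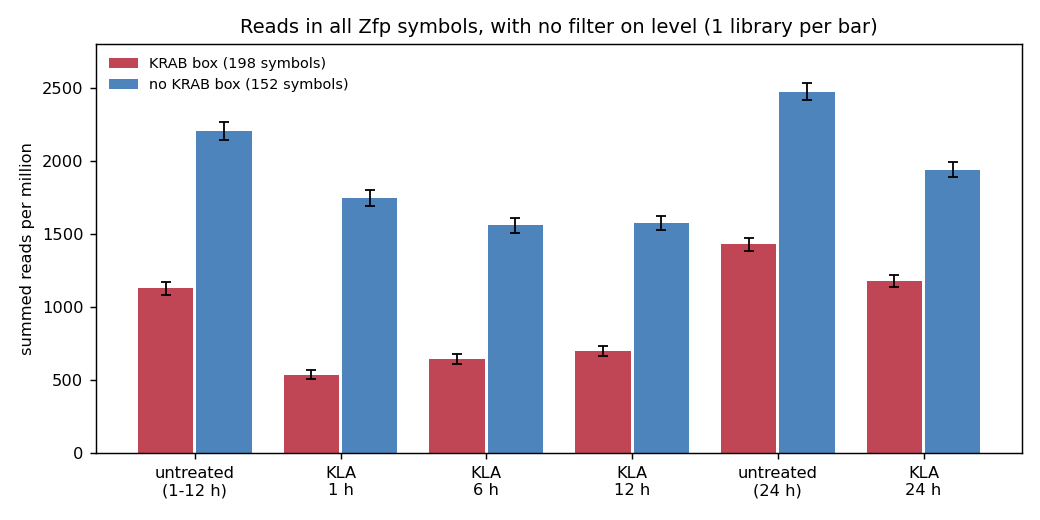
Summed reads as RPM (bars, 1 library each) over all Zfp symbols with a KRAB box (red, 198) and without one (blue, 152), with no filter on level; error bars are 95% counting intervals. The red bar is lowest at KLA 1 h (539 against 1130 untreated) and the blue one at KLA 6 h (1559 against 2203).

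Changes of single genes are given as the log2 ratio of RPKM + 1, on which low genes are understated, and a change of 2-fold on that scale is counted. At KLA 1 h, 47 of the 227 members were at least 2-fold lower (20.7%), where 4.09% of all genes tested were. Another 4 members were at least 2-fold higher (1.76%), against 3.65% of all genes. The median member stood at -0.59 and the median gene at -0.16. Without the filter, 48 of the 358 symbols were lower (13.4%), against 1.99% of all symbols. These 2 shares are over sets of unlike level, since 227 of the 358 Zfp symbols passed the filter and 10605 of all 24014 symbols did. The filter itself let in 22 members (9.69%) through the 2 untreated libraries alone, as against 1.02% of all genes, and those had to differ.

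The excess at 1 h was present at each level of expression below 10 RPKM. Among members with a mean under 3 RPKM, 37 of 147 were at least 2-fold lower (25.2%), against 8.01% of all genes in that band. Between 3 and 10 RPKM they were 10 of 71 (14.1%), against 4.54%. Of the 9 members at 10 RPKM or more none was lower and 3 were higher, where 1.58% and 5.31% of all genes in that band were. The count depends on the constant added to RPKM: with 0.1 in place of 1 it was 101 members (44.5%, against 8.3% of all genes), and with 3 it was 2 (0.881%, against 1.2%), a scale on which a gene at 3 RPKM can at most reach 2-fold. With the second untreated library as control 60 members were lower (26.4%, against 4.95%), 30 of the 47 among them. Both counts use the same KLA 1 h library, and their overlap over all genes was not counted. By the counting interval alone, 94 members were below their control at 1 h (41.4%, against 19.2% of all genes) and 6 above it (2.64%, against 6.76%).

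By class, 32 of the 116 members with a KRAB box (27.6%) and 15 of the 109 without one (13.8%) were at least 2-fold lower at 1 h. Their medians were -0.77 and -0.43. With the stricter pattern, 10 of 45 KRAB members were lower (22.2%) with a median of -0.80. Among members averaging 3 RPKM or more, the medians were -0.85 for 25 with the box and -0.38 for 54 without it. The median KRAB member stood at 1.93 RPKM untreated, 0.712 at KLA 1 h, 0.894 at 6 h, 1.17 at 12 h, 2.26 in the second untreated library and 2.13 at 24 h. KLA 1 h was the lowest of the 6 libraries for 53.4% of the KRAB members, 24.8% of the others and 14.7% of all genes tested. Finger number went with the box: members with 10 or more fingers had a median of -0.70 at 1 h, those with 5 to 9 of -0.57 and those with 4 or fewer of -0.38.

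At later times the median member lay closer to the median of all genes than at 1 h. At 6 h, 41 members were at least 2-fold lower (18.1%, against 22.4% of all genes) and 2 higher (0.881%, against 9.35%). At 12 h, 20 were lower (8.81%, against 16.3%) and 2 higher (0.881%, against 8.88%). At 24 h, 11 were lower (4.85%, against 10.6%) and 2 higher (0.881%, against 9.98%). The medians of the members were -0.53, -0.45 and -0.21, and those of all genes -0.46, -0.32 and -0.09. From 6 h on, the share of members past 2-fold on this scale was thus below the background in both directions, while their median stayed 0.08, 0.13 and 0.12 below that of all genes. This depends on the scale and the control. With 0.1 RPKM added, the median of members minus that of all genes was -0.210, -0.266 and -0.189 at 6, 12 and 24 h. With 3 RPKM added it was 0.030, -0.025 and -0.055, and with the other untreated library -0.202, -0.234 and 0.000. By the counting interval alone, 80 members were below control at 6 h (35.2%, against 42.5%), 66 at 12 h (29.1%, against 35.8%) and 47 at 24 h (20.7%, against 26.6%). Above control by that interval were 6 (2.64%, against 13.8%), 8 (3.52%, against 14%) and 9 (3.96%, against 19.3%). Between the 2 untreated libraries 5 members were at least 2-fold higher (2.2%, against 1.72%) in the 24 h control and 3 lower (1.32%, against 2.42%), with a median of 0.15.

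**Figure D2:**
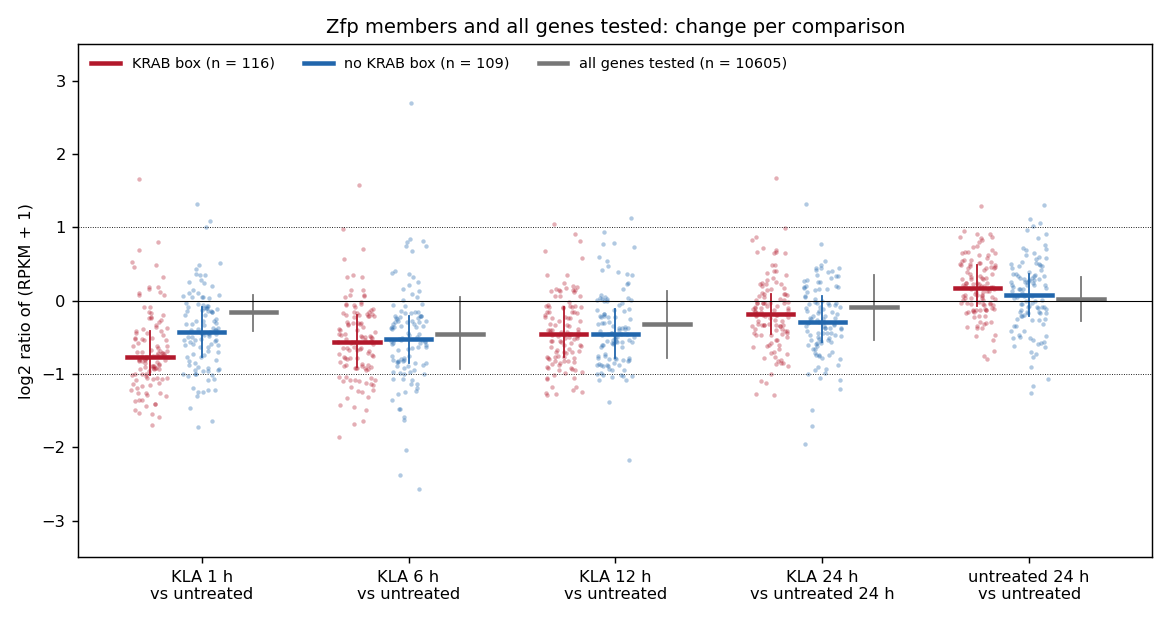
Log2 ratio of RPKM + 1 (vertical axis) in each of 5 comparisons; points are single members with (red) or without (blue) a KRAB box, thick bars are medians and thin lines quartiles, also for all genes tested (grey). Dotted lines mark 2-fold; the red median of -0.77 at KLA 1 h is the one farthest from that of all genes (-0.16).

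The lowest members at 1 h were mostly KRAB genes on few reads. Zfp74, a KRAB gene with 18 fingers (mm9 chr7:30717810-30736912), stood at 2.69 RPKM untreated, 0.225, 0.568 and 0.551 at KLA 1, 6 and 12 h, 1.67 in the second untreated library and 1.61 at 24 h. Its ratio at 1 h was 0.0835 (0.00952 to 0.340) on 2 reads against 22. It was low in the early KLA libraries and at the level of its control at 24 h.

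Zfp748 (mm9 chr13:67639577-67654088) stood at 2.95 RPKM untreated, 0.361, 1.46 and 1.86 at 1, 6 and 12 h, then 3.18 untreated and 1.30 at 24 h. Both untreated libraries lay above all 4 KLA libraries, with a ratio of 0.122 (0.0314 to 0.348) at 1 h. Zfp455, a KRAB gene with 11 fingers, stood at 2.68 RPKM untreated, 0.307, 2.80 and 1.96 at 1, 6 and 12 h, then 2.99 untreated and 4.28 at 24 h. Only its 1 h library was low, at a ratio of 0.115 (0.0128 to 0.489) on 2 reads against 16.

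The KRAB genes Zfp87 and Zfp709 were low at both 1 and 6 h. Zfp87 stood at 6.70 RPKM untreated, 1.39 and 1.40 at 1 and 6 h, 3.32 at 12 h, and 5.00 untreated against 4.00 at 24 h. Its ratio was 0.207 (0.0882 to 0.433) at 1 h and 0.209 (0.0892 to 0.438) at 6 h. Zfp709 was at 3.77 RPKM untreated, 0.629, 0.530 and 1.75 at the early times, and 6.13 untreated against 3.67 at 24 h. The other 3, without a box, complete the 8 lowest at 1 h. Zfp691 had a ratio of 0.0835 (0.00194 to 0.575) on 1 read against 11, Zfp553 of 0.102 (0.0115 to 0.426) on 2 against 18, and Zfp322a of 0.209 (0.0937 to 0.421) on 10 against 44. Zfp691 also differed between the untreated libraries, at 3.15 and 0.733 RPKM.

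Position set many of these genes beside each other. The chromosomes with most members were 7 (50, of which 25 KRAB), 17 (34, of which 29) and 13 (22, of which 19). Within 1 stretch of chromosome 13 (mm9 chr13:67139530-67927937) lay 15 members, all with a KRAB box, and 8 of them were at least 2-fold lower at KLA 1 h (53.3%), against 24 of the 101 KRAB members elsewhere (23.8%). This stretch was chosen after the positions and values had been seen. Reads of the 15 summed to 137 RPM untreated, 52.1, 67.0 and 88.3 at KLA 1, 6 and 12 h, then 174 untreated and 131 at 24 h. The ratio was 0.380 (0.306 to 0.470) at 1 h, 0.489 (0.401 to 0.595) at 6 h, 0.645 (0.539 to 0.770) at 12 h and 0.751 (0.651 to 0.865) at 24 h. Neighbours did not all go together: Zfp456 and Zfp429, side by side in the stretch, stood at log2 ratios of 0.48 and 0.19 at 1 h. These genes are close copies of each other, so how the authors' counting split reads between them is uncertain.

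**Figure D3:**
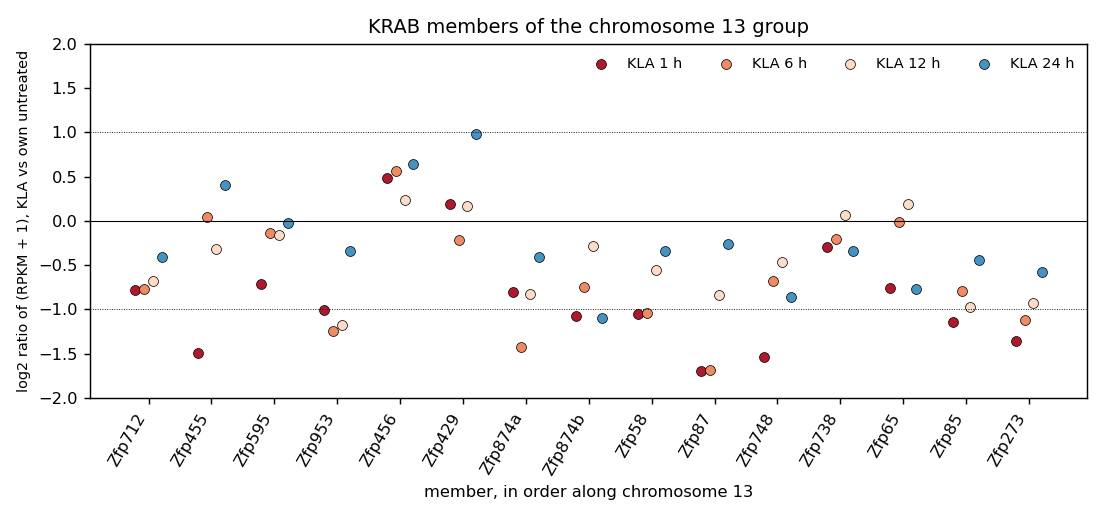
Log2 ratio of RPKM + 1 (vertical axis) of the 15 KRAB members of the chromosome 13 stretch, in their order along the chromosome, for the 4 KLA times against their own untreated library. Dotted lines mark 2-fold; 8 genes lie at or below the lower line at 1 h, and Zfp456 and Zfp429 lie above 0.

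The letters shown at the start were found in the RefSeq promoter window (250 bases before to 50 after the start) of 26 of the 104 KRAB members with a window (25%). They occur in 2.08% of the 27023 genes of that table, tested here or not. Of the genes tested that are no members and have a window, 404 held the letters and 7771 did not. The letters were picked because they recurred among windows of KRAB members, so their share is a description. They were not alone in this. An ETS type site (CGGAAGTG) stood in 20.2% of the 104, a CCAAT type site (AGCCAATCA) in 11.5% and a CRE type site (TGACGTCA) in 7.69%. Of the 27023 genes, 3.86%, 2.62% and 2.03% held these. Of the 116 KRAB members 12 had no window. A GC box (GGGGCGGGG, either strand) stood in 3.85% of the KRAB members with a window, against 12.9% of the 27023 genes. An NF-kappaB type site stood in 2 of the 104, against 0.466% of the 27023 genes. These shares of the 27023 include genes not tested here, so they are not the background used for the changes.

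Among KRAB members, those with the letters were lower at 1 h more often than those without. At least 2-fold lower at KLA 1 h were 14 of the 26 KRAB members with them (53.8%, median -1.03), and 16 of the 78 without (20.5%, median -0.76). All 14 of the chromosome 13 stretch that had a window carried the letters (the 15th, Zfp87, had no window). Outside it the counts were 7 of 12 with the letters (58.3%, median -1.09) and 16 of 78 without. At 6 h the counts with and without were 6 of 26 and 13 of 78, with medians of -0.63 and -0.55. At 12 h they were 5 of 26 and 6 of 78, and the medians had the opposite order (-0.39 and -0.47). At 24 h they were 2 of 26 and 3 of 78, with medians of -0.34 and -0.13. Among members without a KRAB box the share at 1 h went the other way, with 1 of 9 lower with the letters (11.1%, median -0.71) and 10 of 74 without (13.5%, median -0.44). Among genes tested that are no members, 3.71% of 404 with the letters and 3.17% of 7771 without were at least 2-fold lower. For the CCAAT type site, KRAB members had the opposite order of medians at 1 h. With it 4 of 12 were lower (33.3%, median -0.504), and without it 26 of 92 (28.3%, median -0.795). The ETS and CRE type sites were not split in this way. Windows were found for 89.7% of the KRAB members, 76.1% of the members without a box and 78.9% of all genes tested. Genes without a window are left out of all these counts. Any part of the letters in the changes was not tested. Zfp143 itself stood at 3.46 RPKM untreated and 3.04 at KLA 1 h, a ratio of 0.879 (0.467 to 1.65).

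**Figure D4:**
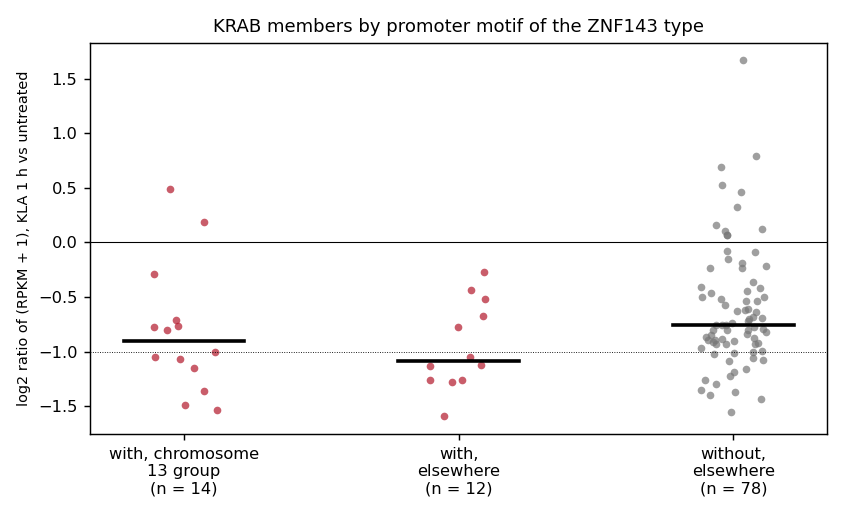
Log2 ratio of RPKM + 1 at KLA 1 h against untreated (vertical axis) of KRAB members with the ZNF143-type letters in their promoter window, in the chromosome 13 stretch (14) or elsewhere (12), and without them (78); bars are medians. Both groups with the letters have lower medians (-0.90 and -1.09) than the group without (-0.76).

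A few members were higher with KLA. Zfp800 (mm9 chr6:28189931-28211601), with 6 fingers and no KRAB box, stood at 3.96 RPKM untreated, 11.3, 31.3 and 9.86 at KLA 1, 6 and 12 h, then 7.15 untreated and 13.0 at 24 h. Every KLA library lay above both untreated ones. Its ratio was 2.87 (1.93 to 4.35) at 1 h, 7.90 (5.53 to 11.6) at 6 h, 2.49 (1.67 to 3.81) at 12 h and 1.81 (1.35 to 2.45) at 24 h, and at 6 h it was the member highest above its control.

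The KRAB genes Zfp719 and Zfp658 are neighbours on chromosome 7 (mm9 chr7:50834956-50849080 and chr7:50817740-50830831) and both stood above their own control at each KLA time. Zfp719 stood at 0.999 RPKM untreated, 5.34, 2.96 and 3.11 at 1, 6 and 12 h, then 2.09 untreated and 4.49 at 24 h. Its ratio was highest at 1 h, at 5.35 (2.80 to 11.2). Zfp658 stood at 0.671 RPKM untreated, 0.863, 3.99 and 1.93 at the early times, then 1.14 untreated and 2.54 at 24 h, with its highest ratio at 6 h, at 5.95 (2.30 to 19.6) on 32 reads against 5.

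These 3 members, the highest at 6 h, shared a further promoter sequence, the palindrome known for NRF1, in their windows. It stood in 7 of the 188 members with a window (3.72%). In the promoter table as a whole, tested here or not, it stood in 1.07% of the genes. Of the genes tested that are no members and have a window, 208 held it and 7967 did not. The sharing was noticed after these genes had been picked out by their values, so it is a description. Of the other 4 with it, Zfp213 had a log2 ratio of 0.75 at 6 h, Zfp653 of -0.36, Zfp639 of -0.52 and Zfp82 of -1.09. Zfp800 has a second annotated start, at which the 120 bases before it (chr6:28398006-28398125) hold no such palindrome. The stretches end at the base before the start (GRCm38.p6), with the palindrome in capitals. They are Zfp719 at chr7:43579466-43579585 (plus), Zfp800 at chr6:28261925-28262044 (minus) and Zfp658 at chr7:43562170-43562369 (plus).
Zfp719: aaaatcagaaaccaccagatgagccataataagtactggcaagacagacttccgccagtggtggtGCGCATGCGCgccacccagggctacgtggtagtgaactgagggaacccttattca
Zfp800: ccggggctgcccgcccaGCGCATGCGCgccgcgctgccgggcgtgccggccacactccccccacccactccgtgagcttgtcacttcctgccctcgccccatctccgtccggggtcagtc
Zfp658: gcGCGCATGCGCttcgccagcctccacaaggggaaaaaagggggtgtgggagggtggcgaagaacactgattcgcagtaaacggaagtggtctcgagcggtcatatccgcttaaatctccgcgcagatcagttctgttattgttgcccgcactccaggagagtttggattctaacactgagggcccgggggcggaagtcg

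Zfp263 and Zfp703 were the other members at least 2-fold higher at 1 h. Zfp263, which binds G-rich DNA, stood at 11.8 RPKM untreated, 24.7, 20.4 and 15.3 at KLA 1, 6 and 12 h, then 13.2 untreated and 12.2 at 24 h. Its ratio was 2.10 (1.62 to 2.75) at 1 h and 1.74 (1.32 to 2.29) at 6 h. Zfp703, a corepressor that binds Groucho proteins, stood at 11.3 RPKM untreated, 25.2, 5.98 and 6.19 at the early times, then 14.5 untreated and 8.26 at 24 h. It was above its control at 1 h only, with a ratio of 2.23 (1.71 to 2.94), and at 6 h its ratio was 0.529 (0.359 to 0.773). Against the second untreated library, only 1 of the 4 members higher at 1 h, Zfp719, passed 2-fold, so Zfp263, Zfp703 and Zfp800 did not.

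The lowest member at 6, 12 and 24 h, Zfp395, had no KRAB box. Zfp395 and Zfp704, close relatives in sequence, gave the lowest and second-lowest log2 ratios at 12 and 24 h. Zfp395 (mm9 chr14:65977513-66017767) stood at 6.11 RPKM untreated, 2.07, 0.199 and 0.580 at KLA 1, 6 and 12 h, then 6.31 untreated and 0.884 at 24 h. Both untreated libraries lay above every KLA library, with a ratio of 0.0326 (0.00386 to 0.123) at 6 h on 2 reads against 57 and of 0.140 (0.0644 to 0.274) at 24 h. Zfp704 (mm9 chr3:9427010-9610085) stood at 4.46 RPKM untreated, 3.37, 0.335 and 1.09 at the early times, then 5.08 untreated and 0.864 at 24 h. It was 13.3-fold lower (7.20 to 27.3) at 6 h and 5.88-fold lower (4.02 to 8.85) at 24 h.

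Zfp524, Zfp655 and Zfp414 were low mainly at 6 h. Zfp524 stood at 20.1 RPKM untreated, 7.55, 3.05 and 10.4 at KLA 1, 6 and 12 h, but at 9.10 in the second untreated library and 5.42 at 24 h. The untreated libraries thus differed by a ratio of 0.452 (0.270 to 0.742), next to 0.152 (0.0621 to 0.323) at 6 h. Zfp655 stood at 20.7 RPKM untreated, 13.9, 6.00 and 10.3 at the early times, then 24.2 untreated and 16.1 at 24 h, and was 3.45-fold lower (2.56 to 4.72) at 6 h. Zfp414 was 3.59-fold lower (1.66 to 8.59) at 6 h on 9 reads against 30. The KRAB gene Zfp825 was listed at 0 at 6 h, against 8 reads in its control.

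Below these 2, the lowest members at 12 h carried a KRAB box, and several were low from 1 h on. Zfp266, with 9 fingers, stood at 3.40 RPKM untreated, 0.664, 0.605 and 0.847 at KLA 1, 6 and 12 h, then 5.36 untreated and 2.44 at 24 h. Every KLA library lay below both untreated ones, with a ratio of 0.196 (0.0881 to 0.392) at 1 h and 0.249 (0.124 to 0.468) at 12 h. Zfp120 stood at 8.55 RPKM untreated, 3.20, 4.18 and 2.94 at the early times, then 11.5 untreated and 5.94 at 24 h, also without overlap. Zfp317 had ratios of 0.501 (0.291 to 0.842) at 1 h, 0.328 (0.173 to 0.592) at 12 h and 0.353 (0.197 to 0.608) at 24 h. Zfp52 was lowest at 6 h, with 6.17 RPKM untreated, 3.42, 1.86 and 2.07 at the early times, then 5.62 untreated and 4.25 at 24 h.

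Others crossed their control over time. Zfp319, with 12 fingers and no KRAB box, stood at 2.43 RPKM untreated, 0.710, 5.13 and 4.18 at KLA 1, 6 and 12 h, then 3.20 untreated and 4.37 at 24 h. Its ratio was 0.292 (0.106 to 0.709) at 1 h and 2.11 (1.26 to 3.66) at 6 h, so it lay below and then above both untreated libraries. The KRAB gene Zfp324 followed the same order, at 1.59 RPKM untreated, 0.291, 1.87 and 3.15 at the early times, then 2.16 untreated and 3.05 at 24 h. Its ratio was 0.184 (0.0341 to 0.650) at 1 h and 1.98 (1.05 to 3.93) at 12 h. Zfp446 was 3.79-fold its control (1.39 to 12.9) at 12 h on few reads, at 1.86 RPKM against 0.491, and Zfp330 stood at 10.7 against 6.08 RPKM. The KRAB gene Zfp868 stood at 2.21 RPKM untreated and 4.57 at 1 h, but at 4.87 in the second untreated library.

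At 24 h the 2 members at least 2-fold higher were Zfp558 and Zfp691. The KRAB gene Zfp558 stood at 0.945 RPKM untreated, 1.09, 0.879 and 1.92 at KLA 1, 6 and 12 h, then 0.504 untreated and 3.80 at 24 h. Its KLA 24 h library was the highest of the 6, with a ratio of 7.55 (2.97 to 24.5) on 39 reads against 5. Zfp691 stood at 3.31 RPKM against 0.733, a ratio of 4.51 (1.26 to 24.5) on 14 reads against 3, with the first untreated library at 3.15 RPKM. The KRAB gene Zfp945 came next, at 3.62 RPKM against 1.52, a ratio of 2.38 (1.49 to 3.91). The 11 lower members included Zfp652, a partner of the corepressor Cbfa2t3, at 5.37 RPKM untreated and 1.26 with KLA, and the KRAB genes Zfp715, Zfp212, Zfp317 and Zfp874b. Zfp715 stood at 9.74 RPKM untreated, 4.78, 4.02 and 3.41 at KLA 1, 6 and 12 h, then 11.6 untreated and 4.20 at 24 h, below control throughout. The 47 members lower at 1 h and the 11 lower at 24 h use different controls. They shared Zfp395 and Zfp874b (4.26% of the first and 18.2% of the second). Among all members 4.85% were lower at 24 h and 20.7% at 1 h, so the overlap lay near these shares. The same overlap over all genes was not counted.

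**Figure D5:**
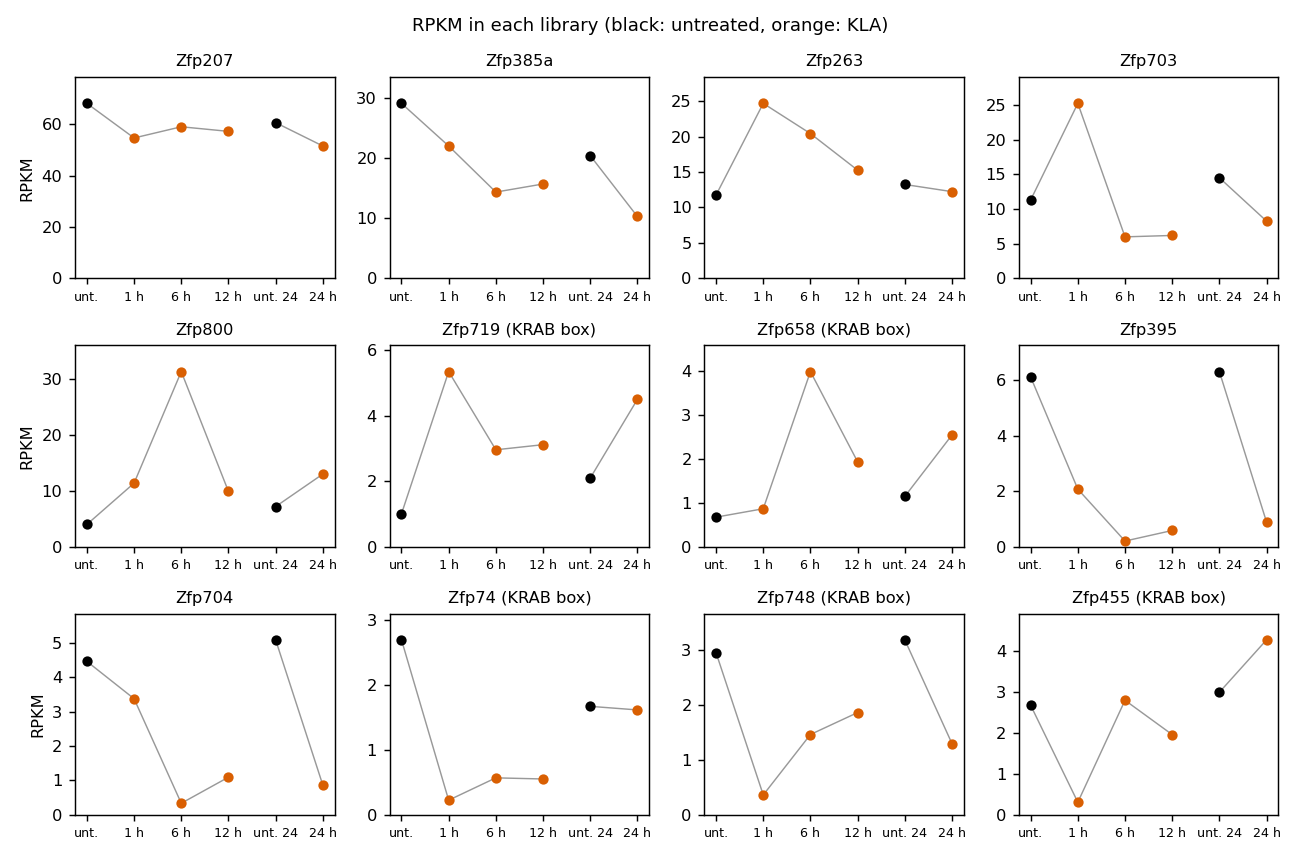
RPKM (vertical axis, from 0) of 12 members in each of the 6 libraries; black points are untreated and orange points KLA libraries, and lines join a control to the KLA times compared with it. Zfp800 peaks at 6 h (31.3), Zfp263 and Zfp703 at 1 h (24.7 and 25.2), and Zfp74, Zfp748 and Zfp455 are lowest at 1 h.

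No KRAB box was found by the pattern in the 10 most abundant members, and Zfp800, Zfp263, Zfp703 and Zfp655, described above, are among them. Zfp207 (BuGZ), the most abundant, encodes a protein that loads Bub3 onto kinetochores, and its RNA stood at 68.1 RPKM untreated, 54.7, 59.0 and 57.2 at KLA 1, 6 and 12 h, then 60.6 untreated and 51.5 at 24 h. All KLA values lay within 0.80 to 0.87 of their control. Zfp385a, an RNA-binding partner of p53, was lower at each time, with 29.1 RPKM untreated, 22.0, 14.4 and 15.7 at the early times and 20.4 against 10.3 at 24 h. Its ratio was 0.493 (0.370 to 0.653) at 6 h and 0.504 (0.365 to 0.689) at 24 h. Zfp91, a ubiquitin ligase acting on NIK in the non-canonical NF-kappaB pathway, stood at 18.2 RPKM untreated and 13.2, 12.1 and 16.0 at the early times, and at 26.3 against 23.3 at 24 h. Zfp706 was 3.11-fold lower (2.28 to 4.30) at 6 h, at 5.34 RPKM against 16.6. Zfp639 stood at 13.0 RPKM untreated and 7.38 at 1 h, and Zfp191 at 9.14 and 6.80.

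Among 21 members listed as transcription or chromatin factors, 2 were at least 2-fold higher at 1 h (Zfp263 and Zfp703) and none lower. Of all genes, 3.65% were higher and 4.09% lower. The median of the list was -0.09 at 1 h next to -0.59 over all members. At 6 h 3 were lower, where 22.4% of all genes were, with a median of -0.39. Zfp740 stood at 10.4 RPKM untreated and 3.87 at 6 h, a ratio of 0.372 (0.245 to 0.553), Zfp219 at 10.3 and 4.40, and Zfp652 at 3.58 and 0.791. Zfp281, which binds GC-rich promoters, stood at 5.93 RPKM untreated, 7.27, 11.0 and 9.07 at the early times, then 10.3 untreated and 13.9 at 24 h. Its ratio was 1.86 (1.38 to 2.52) at 6 h, but its second untreated library was as high as its 6 h one. Its relative Zfp148 went the other way, from 4.76 RPKM untreated to 2.68 at 6 h and from 7.87 to 4.40 at 24 h, a ratio of 0.559 (0.439 to 0.710).

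Other factors of this list moved less. Zfp410, an activator of Chd4, stood at 6.56 RPKM untreated and 5.26, 4.53 and 5.91 at KLA 1, 6 and 12 h, with each interval holding 1. Zfp217, a partner of CoREST, had a ratio of 1.35 (0.934 to 1.97) at 1 h and 0.641 (0.456 to 0.896) at 24 h. Zfp644, which binds the H3K9 methyltransferases G9a and GLP, stood at 5.34 RPKM untreated and 2.66 at 12 h, a ratio of 0.498 (0.324 to 0.754). The others ranged at 1 h from a ratio of 0.643 (0.300 to 1.34) for Zfp512 to 1.32 (0.807 to 2.17) for Zfp277, by way of Zfp384, Zfp516, Zfp292, Zfp318, Zfp335, Zfp592, Zfp687 and Zfp609.

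Of 9 members that act on RNA and ribosomes, 1 was at least 2-fold lower at 1 h (11.1%, against 4.09% of all genes) and 1 at 6 h (11.1%, against 22.4%). The first was Zfp346, a double-stranded RNA binder, at 0.927 RPKM against 3.41, and the second Zfp706. Over 1, 6 and 12 h the medians of the list were -0.37, -0.56 and -0.75, next to -0.16, -0.46 and -0.32 for all genes. Zfp598, the ubiquitin ligase of collided ribosomes, stood at 7.45 RPKM untreated and 7.86, 5.64 and 7.59 at the early times, with each interval holding 1. Zfp106 was at 7.73 RPKM untreated and 4.18 at 12 h, a ratio of 0.541 (0.414 to 0.704). Zfp830, a splicing-associated protein, had ratios of 0.492 (0.283 to 0.834) at 1 h and 0.440 (0.248 to 0.758) at 12 h.

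Of 5 members listed as signalling, ubiquitin or SUMO proteins, none was at least 2-fold lower at 1 h, where 4.09% of all genes were. Zfp369 was listed at 0 at 6 h against 8 reads. Zfp64, reported to act with NF-kappaB p65, stood at 4.45 RPKM untreated and 1.82 at 1 h, a ratio of 0.408 (0.189 to 0.834). Zfp110, which binds the p75 neurotrophin receptor, stood at 8.31 RPKM untreated and 5.99 at 1 h. Zfp451, a SUMO ligase, stood at 2.27 and 1.87.

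Another 4 members, all with a KRAB box, are known for silencing imprinted or retroviral DNA. They are those of a list of 9 such genes that passed the filter. All 4 were below control at 1 h without passing 2-fold, where 87.9% of KRAB members and 67.6% of all genes tested were below control. Zfp445, which maintains imprints, stood at 7.18 RPKM untreated, 3.37, 4.43 and 4.82 at KLA 1, 6 and 12 h, then 8.68 untreated and 8.22 at 24 h. It was 2.13-fold lower (1.50 to 3.06) at 1 h in RPKM and at its control's level at 24 h, with a ratio of 0.947 (0.742 to 1.21). Zfp809, which silences murine leukaemia viruses, stood at 2.55 RPKM untreated and 1.04 at 1 h on 9 and 4 reads, too few to tell the ratio of 0.408 (0.0919 to 1.46) from 1. Zfp961 and Zfp568 had ratios of 0.778 (0.315 to 1.88) and 0.501 (0.152 to 1.48).

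The genes of the corepressors that KRAB proteins use are given beside all genes. Trim28 stood at 21.3 RPKM untreated, 14.5, 20.9 and 20.9 at KLA 1, 6 and 12 h, then 22.3 untreated and 23.0 at 24 h. Only the 1 h library was low, at a ratio of 0.683 (0.531 to 0.877). Of 15 genes of the KRAB corepressor and H3K9 methylation list that passed, none was at least 2-fold lower at 1 h, and all 15 were below control, with a median of -0.32 (67.6% of all genes were below control, with a median of -0.16). At 6 h 5 of 15 were lower (33.3%, against 22.4% of all genes), namely Dnmt1, Cbx5, Atf7ip, Mphosph8 and Ehmt1. Pphln1 was higher, at 15.8 RPKM against 7.18 (6.67%, against 9.35%). Dnmt1 stood at 19.9 RPKM untreated and 4.50 at 6 h. Of 13 NuRD genes, none was at least 2-fold higher or lower at 1 h (3.65% and 4.09% of all genes were), with a median of -0.14.

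Peaks of SREBP1 (a sterol-regulated transcription factor) and LXR (the oxysterol receptor), called by the authors, lay at many members. The SREBP1 sample is labelled with the LXR agonist GW3965. A peak centre within 1000 bases of a transcript start was found for SREBP1 at 116 members (51.1%, against 42.7% of all genes tested) and for LXR at 123 (54.2%, against 53.8%). By class, SREBP1 peaks lay at 44.8% of KRAB members and 56.9% of the others, and LXR peaks at 50.9% and 56.9%. The highest LXR peak at a member by the authors' normalised tag count, 427, lay 84 bases from a start of Zfp27 (mm9 chr7:30691543-30691727), followed by 167 at Zfp513. The highest normalised tag counts of SREBP1 peaks at members were 27.5 at Zfp655 and 27.1 at Zfp512. The title of the LXR sample names the agonist and its treatment field names none, and the header of its peak list names an input from KLA-treated cells, so its treatment is uncertain.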

How the data were processed

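The authors deposited RPKM values of 6 poly(A) RNA libraries for 33022 transcripts on mm9, and per the file headers HOMER peak lists with a normalised tag signal and a fold ratio over input. Bowtie 0.12.7, STAR and HOMER are named in the submitters' processing notes. The sources used here do not state whether counting used strand or how reads of close copies were assigned. Reads were recovered as RPKM × length × a library total (99.94% to 99.98% of values whole within 0.01 read). A 0 in the table may be a value that was not estimated.

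Members and gene lists were chosen with earlier results of these data known. Changes are log2 ratios of RPKM + 1, and a call is 2-fold. Coding sequences and promoter windows came from RefSeq GRCm38.p6, matched by gene ID or symbol, and no coordinates were converted. Named members are the 10 most abundant, the 8 highest and 8 lowest per KLA comparison whose counting interval leaves out 1, and 4 role lists. Tools were Python 3.11.15, pandas 2.3.3, numpy 2.4.6, SciPy 1.17.1 and pysam 0.24.0. On simulated reads for KLA 1 h against untreated (10605 genes), genes lowered to 0.25 had the right direction in 100% and passed 2-fold in 82%, those lowered to 0.5 in 96% and 26%, and 2.04% of unchanged genes passed 2-fold.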

Additional observations from a re-analysis of the deposited data

How the results depend on the processing

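No paired analysis was possible because each condition has 1 library. Counts of members at least 2-fold higher and lower are given in that order for KLA 1, 6, 12 and 24 h and for the untreated libraries against each other, beside 4 and 47, 2 and 41, 2 and 20, 2 and 11, and 5 and 3. With 0.1 RPKM added they were 8 and 101, 9 and 87, 7 and 67, 8 and 33, and 19 and 9. With 3 RPKM added they were 2 and 2, 1 and 8, 0 and 1, 0 and 3, and 0 and 0. Centred on the median of all genes, 27 were lower at 1 h, 12 were higher and 11 lower at 6 h, and 9 higher and 2 lower at 12 h. With at least 3 RPKM in 2 libraries, 20, 22 and 8 were lower at 1, 6 and 12 h, 1 was higher at 6 h and 1 at 24 h, and 3 were higher between the untreated libraries. With the other untreated library as control, 1 was higher at 1 h, 41 were lower at 12 h and 10 higher at 24 h, and at 24 h the median of members (-0.08) equalled that of all genes. With this control Zfp868 at 1 h (-0.075) and Zfp281 at 12 h (-0.171) changed sign. Where the counting interval also had to leave out 1, 3 were higher between the untreated libraries. With a mean of at least 3 RPKM (chosen after seeing the data) 10, 15, 5 and 3 were lower at 1, 6, 12 and 24 h, 1 was higher at 6 h, and 0 at 24 h and between the untreated libraries. Fewer genes are tested under the stricter filters, and otherwise the cause was not tested. The other 47 of 89 counts lay within 1.5 times, and of 494 changes of named members 415 moved by less than their counting interval and 77 by more. For most of these settings the share of all genes is not given, so the counts alone do not set members apart from the background. Over these settings, the median of members at 1 h minus that of all genes ran from -0.666 (0.1 RPKM added) to -0.223 (3 RPKM added). At a median of 11 to 26 reads per member, single members are measured coarsely. Most members called at least 2-fold lower on RPKM + 1 also had a counting interval that left out 1. They were 45 of 47 at 1 h, 37 of 41 at 6 h, 19 of 20 at 12 h and 10 of 11 at 24 h. The same held for most genes tested that were called lower. Those were 325 of 434, 2197 of 2375, 1573 of 1730 and 1023 of 1122 at these times, so this does not set members apart. That interval covers counting error only, and the difference between the untreated libraries is the only view of the spread between libraries.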
